A study of Mus musculus with 6 samples.

Results

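The muscle microRNAs, often called myomiRs, are a small group of microRNAs found mainly in skeletal and cardiac muscle. Of the 7 named here, 6 had a mouse assay on the card used to profile the dentate gyrus, among 381 assays in all: mmu-miR-1, mmu-miR-133a, mmu-miR-133b, mmu-miR-208, mmu-miR-208b and mmu-miR-499. They were taken by assay name, without regard to their values, and mmu-miR-206 was not analysed here because none of the assays in the table bears its name. The right dentate gyrus was dissected from 6 male C57/Black6J mice aged 6 to 8 weeks, 72 h after injections into the abdominal cavity of saline in 3 mice or of kainic acid in 3 mice. Kainic acid, a glutamate receptor agonist, was given repeatedly at low dose until status epilepticus, a state of lasting seizures (KA-SE), and the study kept mice with long severe seizures, so the KA-SE group is a selected one. No allele or transgene distinguished the groups. Each library came from the total RNA of 1 mouse, and 800 ng was run as 1 TaqMan card per mouse. Each assay was read as a Ct, the number of PCR cycles needed for its fluorescence to pass a threshold. An earlier Ct means more RNA, a Ct of 40 stands for no amplification, and a Ct below 35 was counted as detected.

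A microRNA is a short RNA that guides Argonaute proteins to messenger RNAs, mainly through its seed, bases 2 to 8 from the 5′ end, and lowers the output of the messages it pairs with. In muscle, miR-1 and miR-133a are cut from shared primary transcripts and are switched on by the muscle factors SRF, MEF2 and MyoD, and miR-133b is made from a locus shared with miR-206. miR-208 (now miR-208a), miR-208b and miR-499 lie in genes of myosin heavy chains. Of these, miR-208b and miR-499 act in the choice between fast and slow muscle fibres. The dentate gyrus holds granule neurons, glia and vessels and no striated muscle. miR-133b has also been described in midbrain dopamine neurons.

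The sequences below show which of these assays read near-identical RNAs, since an assay for one could in part read the other. They are RefSeq mature sequences of assembly GRCm38.p6, written 5′ to 3′ with the seed in capitals. The deposited table gives assay names without arms, so each is the arm for which the older name stood, and 4 of the 6 assays are shown.
miR-133b-3p: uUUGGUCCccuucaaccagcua
miR-208a-3p: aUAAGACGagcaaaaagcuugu
miR-208b-3p: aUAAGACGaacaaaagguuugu
miR-499-5p: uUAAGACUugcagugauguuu
The miR-133b arm lies at chr1:20682834-20682855 on the plus strand, inside the long non-coding RNA gene Lincmd1 and within 10 kb of Mir206. The miR-208a arm lies at chr14:54949072-54949093 on the minus strand, inside Myh6, the gene of the alpha cardiac myosin heavy chain. The miR-208b arm lies at chr14:54975710-54975731 on the minus strand, inside Gm31251, a long non-coding RNA gene, and Myh7, the gene of the beta cardiac and slow skeletal heavy chain. The miR-499 arm lies at chr2:155622893-155622913 on the plus strand, inside Myh7b, a further myosin heavy chain gene. The annotation table holds gene spans only, so exon and intron were not assigned. miR-208a and miR-208b share the seed and are identical at 19 of 22 positions. Counted from the 5′ end of miR-208a, the changes to miR-208b are G10A, A16G and C18U. miR-499 differs from both in the seed by G8U and is identical to miR-208a at 12 of 21 positions and to miR-208b at 10.

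The libraries detected 303 to 326 assays each. The median Ct of the 281 microRNAs detected in all 6 libraries was 22.8 to 23.6 in 5 libraries and 25.9 in saline replicate 2. The raw Ct of the small nuclear RNA U6, the reference used below, was 12.8 to 13.9. All 6 neuronal microRNAs listed were detected in all 6 libraries, as were 74.9% of the microRNA assays, so their detection alone does not check the tissue label. The 3 of lowest mean Ct were miR-9, miR-218 and miR-138, with mean Ct values of 15.1, 15.8 and 16.6. The negative control ath-miR159a, a plant microRNA, did not amplify in saline replicates 1 and 3 or KA-SE replicate 1, and had a Ct of 21.7 in saline replicate 2 and of 19.5 and 18.8 in KA-SE replicates 2 and 3. Its signal thus preceded that of every muscle microRNA in those 3 libraries.

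All 6 muscle microRNAs gave a signal in the dentate gyrus of at least 4 mice. Counted over the 6 assays and 6 libraries, 33 of 36 readings were below Ct 35, with 15 of 18 in saline and 18 of 18 in KA-SE mice. miR-1, miR-133a, miR-133b and miR-208 were detected in all 6 libraries, as were 74.9% of the microRNA assays on the card. miR-208b missed saline replicate 1, and miR-499 missed saline replicates 2 and 3. These 3 missing readings were all of no amplification (Ct 40), and none fell between the limit and the end of the run.

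miR-133a, which represses smooth muscle genes and SRF in heart and skeletal muscle, had the earliest signal of the group. Its raw Ct was 22.2, 24.0 and 22.3 in saline replicates 1, 2 and 3 and 21.7, 22.3 and 22.4 in KA-SE replicates 1, 2 and 3. It ranked from 88 to 111 among the 375 microRNA assays of each library by earliest Ct. In each library 60.9% to 68.3% of the microRNAs detected throughout came later than miR-133a.

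miR-1, which promotes muscle differentiation, came later than miR-133a in every library. Its raw Ct was 24.6, 28.0 and 24.8 in saline mice, with 23.8, 24.7 and 24.8 after KA-SE, so that saline replicate 2 stood apart as the latest. A rat assay for miR-1 was also on the card, and it is no member of the group but serves as a second reading. It read 25.0, 28.0 and 25.4 in saline mice, with 24.5, 25.1 and 25.1 after KA-SE. The rat assay thus lay within 0.71 cycles of the mouse assay in every library, and put saline replicate 2 last as well.

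miR-133b, which shares most of its sequence with miR-133a, read later than it throughout. Its raw Ct was 25.1, 27.0 and 25.4 in saline mice, with 24.5, 25.8 and 25.8 after KA-SE. It ranked from 183 to 212 among the microRNA assays, against 176 to 208 for miR-1.

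The microRNAs of the myosin genes had later mean Ct values than the other 3 in KA-SE mice and varied widely between saline mice. miR-208, from the alpha myosin heavy chain gene of heart muscle, had a raw Ct of 24.4, 31.3 and 28.5 in saline mice, with 29.9, 31.1 and 31.1 after KA-SE. The saline mice spanned 6.85 cycles, with saline replicate 1 earliest, while the KA-SE mice lay close together at the late end. miR-208b, from the beta myosin heavy chain gene, did not amplify in saline replicate 1, read 32.1 and 26.1 in saline replicates 2 and 3, and read 28.8, 29.2 and 29.8 in KA-SE mice. The saline readings thus lay on both sides of those after KA-SE. miR-499, from the Myh7b gene, read 25.6 in saline replicate 1, did not amplify in saline replicates 2 and 3, and read 26.5, 29.2 and 31.2 in KA-SE mice. Its earliest reading was the saline one and the KA-SE mice lay far apart.

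**Figure D1:**
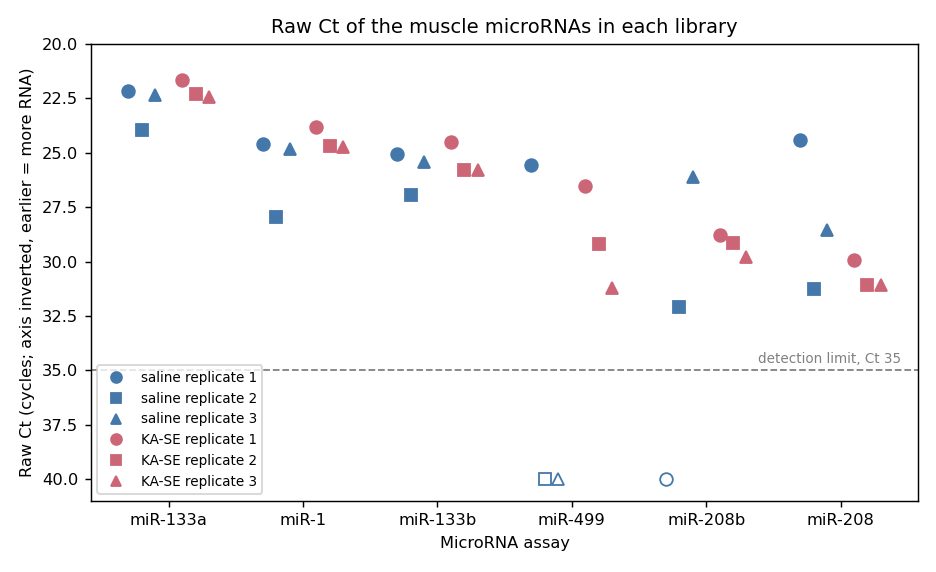
Raw Ct in cycles (inverted axis, earlier means more RNA) of the 6 muscle microRNA assays, with 1 point per library, blue for saline and red for KA-SE, and open symbols at 40 for no amplification. miR-133a, miR-1 and miR-133b lie close together within each assay apart from saline replicate 2, whereas the saline points of miR-499, miR-208b and miR-208 lie far apart, with 3 of them at 40.

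Saline replicate 1 therefore had the earliest miR-208 and miR-499 of all 6 libraries and no miR-208b, although miR-208a and miR-208b differ at only 3 positions. A Ct below 30 in a mouse together with no amplification in a mouse treated alike was seen for 2 of the 6 muscle assays, miR-208b and miR-499, and for 10.5% of all assays on the card. The pattern of miR-499, detected in saline replicate 1 and in all KA-SE mice, was shared by 5 other assays among 375, namely miR-147, miR-216a, miR-367, miR-96 and the rat assay for miR-743b. Of these miR-216a, known from the pancreas, read 29.1 in the saline library that detected it and 25.3, 27.1 and 29.1 after KA-SE. No other microRNA assay had the pattern of miR-208b.

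Ct values of different assays depend on the assay as well as on the amount of RNA, and the order given here is one of Ct. In KA-SE mice, where all 6 were detected, the order by mean Ct was miR-133a, miR-1, miR-133b, miR-499, miR-208b and miR-208, with means of 22.1 ± 0.41, 24.4 ± 0.52, 25.4 ± 0.75, 29.0 ± 2.3, 29.3 ± 0.52 and 30.7 ± 0.68 (SD, n = 3 each). The ranges of miR-133a and miR-1 did not overlap, nor did those of miR-133b and miR-499. The ranges of miR-1 and miR-133b overlapped, as did those of miR-499 with miR-208b and with miR-208, while miR-208b ended just before miR-208 began. In saline mice miR-133a was again the earliest, with 22.8 ± 0.99 (SD, n = 3), followed by miR-1 with 25.8 ± 1.9 and miR-133b with 25.8 ± 1.0, whose ranges overlapped. miR-208 followed with 28.1 ± 3.4, and for miR-208b and miR-499 no mean was formed in this group.

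For the comparison of the groups each microRNA was set against U6 from the same library by subtracting its Ct from that of U6. A difference of 1 in this level over U6 is a doubling where the PCR is fully efficient, so differences are read as log2 fold changes. The 281 microRNAs detected in all 6 libraries were tested together with limma, and a call required a change of at least 1.5-fold at an adjusted p below 0.05. Of these, 0% were called, and none of the 4 muscle microRNAs in the test was. At an unadjusted p under 0.05 there were 8 microRNAs by limma and 6 by the methods' t-test, and none was a muscle microRNA. Under the alternatives, miR-208 had an unadjusted p under 0.05 in 7 of 20 and miR-1, miR-133a and miR-133b in 0 of 20 each. In those 7, from 23 to 67 of the 281 to 293 microRNAs tested had an unadjusted p under 0.05 by limma. The 67 came with the global mean without saline replicate 1, an alternative added after seeing the data. Over U6 the median log2 fold change of all 281 was 0.62, and relative to the mean of the microRNAs it was -0.039. Without saline replicate 2 it was 0.13 over the 293 microRNAs then detected throughout, so each value below is to be read against that shift. In bulk tissue, fewer cells of a type and less RNA per cell cannot be told apart.

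The levels of miR-1 in the KA-SE mice all lay above those of the saline mice, by a narrow margin. They were -11.7, -14.1 and -11.4 in saline mice, with -11.0, -11.1 and -11.4 after KA-SE. Saline replicate 3 and KA-SE replicate 3 were almost level. Groups separated in this direction made up 19.2% of all microRNAs tested, so the separation did not set miR-1 apart. The log2 fold change was 1.22 (standard error 0.74, limma adjusted p = 0.556), against which 80.8% of the microRNAs tested lay lower. Without saline replicate 2 it was 0.37 (standard error 0.22). The rat assay for miR-1 gave levels of -12.2, -14.1 and -12.0 in saline mice, with -11.8, -11.5 and -11.8 after KA-SE, likewise without overlap, and a log2 fold change of 1.06 (standard error 0.63, limma adjusted p = 0.556), or 0.39 without saline replicate 2. The exact permutation test gave p = 0.1 for either assay, the smallest p that 3 mice against 3 allow. The summed level over U6 of the 6 neuronal microRNAs was -2.84 to -0.37 in saline and -0.20 to -0.015 in KA-SE mice, with 0 of the 6 called. Over U6, 87.2% of all microRNAs tested were above 0 in log2 fold change. The part of either shift in the miR-1 values was not tested.

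miR-133a and miR-133b showed no separation of the groups. The level of miR-133a was -9.27, -10.1 and -8.94 in saline mice, with -8.88, -8.72 and -9.08 after KA-SE, so that saline replicate 3 lay within the KA-SE range. Its log2 fold change was 0.54 (standard error 0.46, limma adjusted p = 0.610), or 0.21 without saline replicate 2, and -0.12 relative to the mean of the microRNAs. The level of miR-133b was -12.2, -13.1 and -12.0 in saline mice, with -11.7, -12.2 and -12.4 after KA-SE, and full overlap apart from saline replicate 2. Its log2 fold change was 0.29 (standard error 0.48, limma adjusted p = 0.733), and -0.037 without saline replicate 2. With all libraries, both microRNAs lay below the median log2 fold change of all microRNAs over U6, which was 0.62. Without saline replicate 2 the median was 0.13, and miR-133a lay above it and miR-133b below.

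miR-208 had the lowest log2 fold change of the 281 microRNAs tested over U6, and its test was not passed. Its level was -11.5, -17.4 and -15.1 in saline mice, with -17.1, -17.5 and -17.8 after KA-SE. Saline replicate 2, the library with the latest median Ct, therefore lay within the KA-SE range over U6. The median level over U6 of the microRNAs tested was -12.0 in that library, and from -10.3 to -9.99 in the others. Groups separated with KA-SE lower made up 1.42% of the microRNAs tested, and miR-208 was not one of them. Relative to the mean of the microRNAs in each library, however, the groups of miR-208 did not overlap, with levels of -1.34, -5.60 and -5.04 in saline mice and -7.17, -7.55 and -7.57 after KA-SE. Separation with KA-SE lower was then found for 12.1% of the microRNAs tested, and with KA-SE higher, as for miR-1, for 12.8%. The log2 fold change was -2.78 (standard error 1.33, limma adjusted p = 0.556), and the exact permutation test gave p = 0.2. Relative to the mean of the microRNAs it was -3.44 (standard error 1.06, unadjusted p = 0.0147, limma adjusted p = 0.464, exact permutation p = 0.1, the smallest possible). Over U6 it was -1.21 (standard error 0.78) without saline replicate 1 and -4.14 (standard error 1.03) without saline replicate 2. The saline SD of miR-208 was 2.96 cycles, larger than that of 98.9% of the microRNAs tested, whose median was 0.98. Its SD in KA-SE mice was 0.32 cycles, where the median was 0.20.

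**Figure D2:**
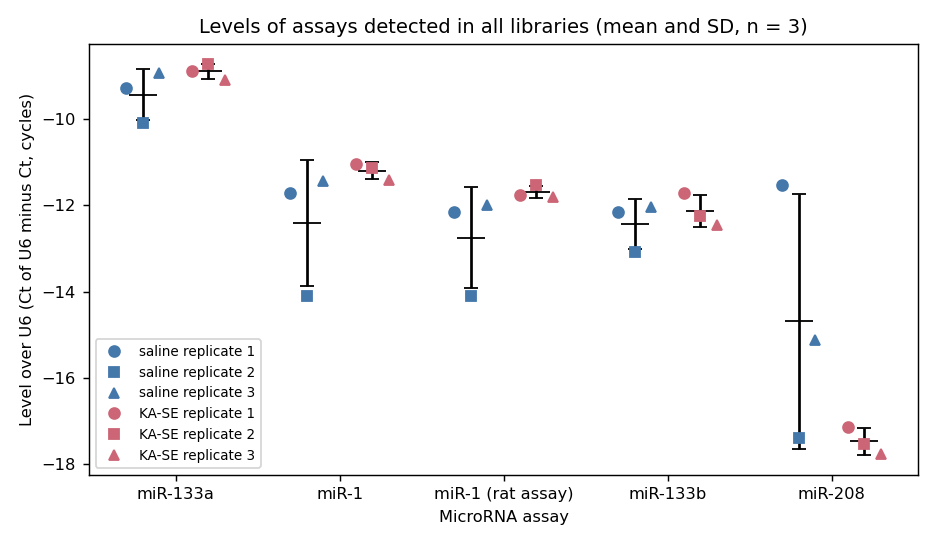
Level over U6 in cycles (Ct of U6 minus Ct) of the 4 muscle microRNAs detected in all libraries and of the rat assay for miR-1, with 1 point per library and black bars for the mean and SD of 3 mice. The SD bars of the groups overlap for each assay, and the saline points of miR-208 run from -11.5 down to -17.4, among the KA-SE mice.

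For miR-208b and miR-499 a Ct of 35 or more was set to 35, so that their levels are upper bounds where they were missed. With this floor the mean level of miR-208b was -17.7 in saline mice against -16.0 after KA-SE, and the difference was 1.66 cycles (exact permutation test, p = 0.7). Without saline replicate 1, the library that missed it, the difference was -0.56, and without saline replicate 3 it was 4.14. The mean level of miR-499 was -18.5 in saline mice against -15.8 after KA-SE, and the difference was 2.72 cycles (exact permutation test, p = 0.4). It was 5.61, 1.39 and 1.16 cycles without saline replicate 1, 2 and 3 in turn, and 1.71 cycles without KA-SE replicate 1. Detection in 1 of 3 saline and 3 of 3 KA-SE mice gave p = 0.4 for miR-499 in Fisher's exact test, and 2 of 3 against 3 of 3 gave p = 1.0 for miR-208b.

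**Figure D3:**
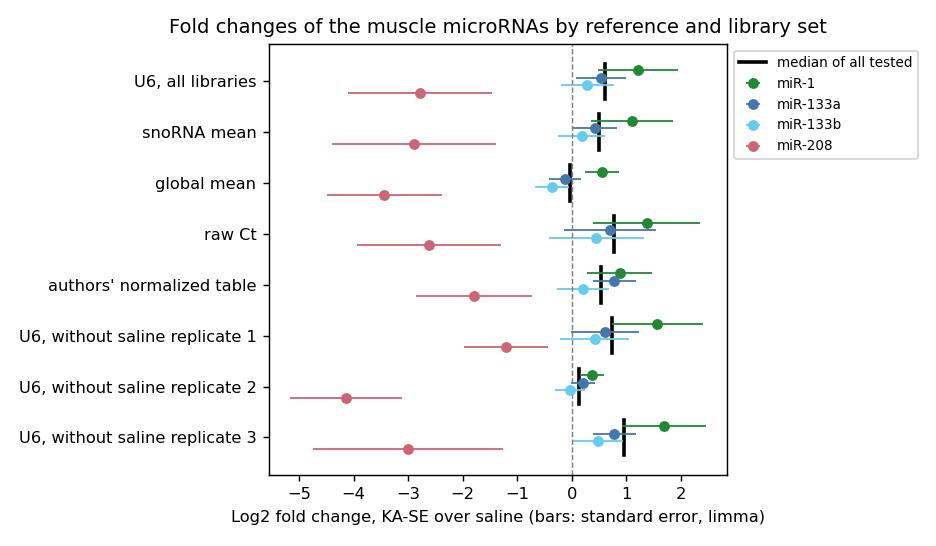
Log2 fold change of KA-SE over saline with its standard error from limma for miR-1, miR-133a, miR-133b and miR-208 over U6, over the snoRNA mean, relative to the global mean, as raw Ct, in the authors' normalized table, and over U6 without each saline library, with black ticks for the median of all microRNAs tested. miR-208 lies between -4.14 and -1.21 in each row, while miR-133a and miR-133b fall below 0 with the global mean, as miR-133b does without saline replicate 2.

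Differences between muscle microRNAs in the same library need no reference RNA. Of the 6 pairs planned, 2 had both members detected in all libraries. miR-133b came after miR-133a by 2.89, 3.00 and 3.11 cycles in saline mice, and by 2.85, 3.52 and 3.37 cycles after KA-SE. The saline range lay within that of the KA-SE mice, and the group means of 3.00 ± 0.11 and 3.24 ± 0.36 (SD, n = 3 each) differed by 0.25 cycles (exact permutation test, p = 0.4, adjusted p = 0.4 over 2 pairs). The 2 assays thus stayed 2.85 to 3.52 cycles apart although saline replicate 2 was late in both. Whether either assay in part read the RNA of the other was not tested.
The distance of miR-1 and miR-133a was less even in saline mice, with an SD of 0.89 cycles against 0.11 for miR-133a and miR-133b. After KA-SE it was more even, with an SD of 0.12 cycles against 0.36. The Ct of miR-133a minus that of miR-1 was -2.43, -4.01 and -2.51 in saline mice, with -2.17, -2.41 and -2.34 after KA-SE. The gap was thus smaller in every KA-SE mouse than in the saline mice, though KA-SE replicate 2 and saline replicate 1 were almost level. How many other pairs of microRNAs separate the groups was not computed, so the separation does not set this pair apart. Among single microRNAs over U6, 19.2% were separated with KA-SE higher and 1.42% with KA-SE lower. The difference of the means was 0.68 cycles (exact permutation test, p = 0.1, adjusted p = 0.2 over 2 pairs), and 0.16 cycles without saline replicate 2. In that library miR-1 was later by far more than miR-133a, which comes from the same primary transcripts.
The remaining pairs are given as values. The rat assay for miR-1 followed the mouse assay by 0.45 and 0.56 cycles in saline replicates 1 and 3 and by 0.71, 0.39 and 0.38 cycles after KA-SE, and read level with it in saline replicate 2. The Ct of miR-208b minus that of miR-208 was 0.82 in saline replicate 2 and -2.42 in saline replicate 3, with -1.13, -1.93 and -1.29 after KA-SE. The Ct of miR-499 minus that of miR-208b, both detected together in KA-SE mice alone, was -2.26, 0.049 and 1.39. The near-identical miR-208 and miR-208b thus changed order between the saline mice that had both, while miR-208b came first in all 3 KA-SE mice.

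**Figure D4:**
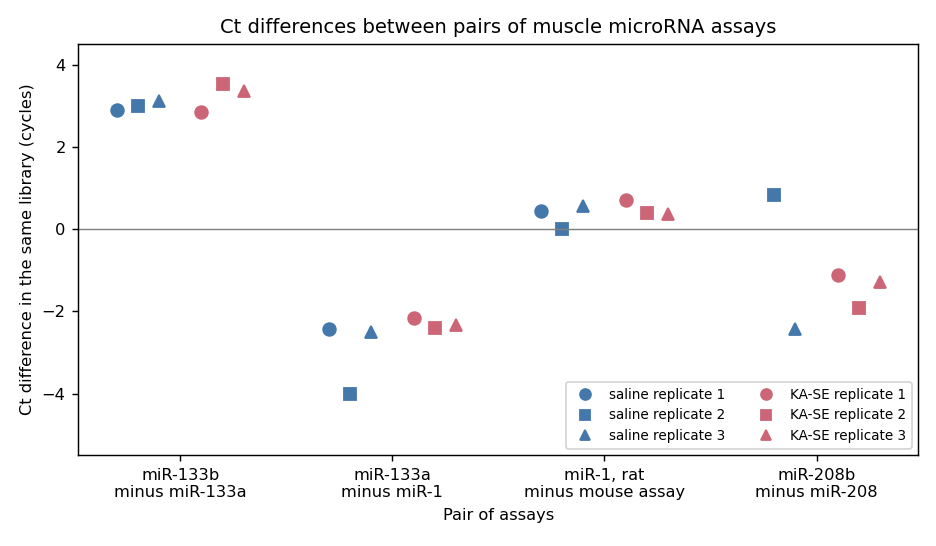
Ct difference in cycles between the assays of a pair in the same library, with 1 point per library, blue for saline and red for KA-SE. miR-133b minus miR-133a stays between 2.85 and 3.52, miR-133a minus miR-1 drops to -4.01 in saline replicate 2, and miR-208b minus miR-208 runs from -2.42 to 0.82.

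Likeness between microRNAs was measured as the root mean square difference of levels over U6, each centred on its own mean, over the 6 libraries and against 280 other microRNAs. Nearest to miR-1 were miR-148b, miR-148a and miR-19b, at 0.076, 0.10 and 0.10 cycles, where the median was 0.645. Nearest to miR-133a were miR-28, miR-455 and miR-30d, at 0.10, 0.11 and 0.12 cycles, where the median was 0.436. Nearest to miR-133b were miR-425, miR-382 and miR-100, at 0.097, 0.12 and 0.13 cycles, where the median was 0.482. The rat assay ranked 28 in likeness to the mouse assay for miR-1, at 0.22 cycles, and miR-133a ranked 132, at 0.62 cycles. miR-133a ranked 18 in likeness to miR-133b, at 0.25 cycles, while miR-133b ranked 52 in likeness to miR-133a. miR-208 had no close match, with miR-509-3p, the rat assay for miR-543 and miR-200c nearest at 1.15, 1.20 and 1.56 cycles. Its median was 2.27 cycles. These distances rest on 6 libraries that share U6 and the late saline replicate 2.

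MicroRNAs active in muscle but not restricted to it covered a wide range of Ct, with some far earlier and others later than the myomiRs. Of 16 listed 15 were on the card and 12 were detected in all libraries, with 0 called and a median log2 fold change of 0.65 over U6, against 0.62 for all microRNAs. The earliest by mean Ct were miR-24 and miR-26a, which promote myoblast differentiation, at 16.2 each, and miR-145, of smooth muscle, at 18.0. The vessel wall microRNAs miR-143 and miR-145 were detected in all libraries, with a summed level over U6 of -5.05 to -4.49 in saline and -4.45 to -4.31 in KA-SE mice. Both are known from smooth muscle, the muscle cell type a dissected dentate gyrus holds, and 0 of the 2 were called. The endothelial microRNAs miR-126-3p and miR-126-5p, with mean Ct values of 17.1 and 20.2, had a summed level of -4.99 to -3.12 in saline and -3.52 to -3.32 in KA-SE mice.
Of the erythrocyte list, miR-451 had a mean Ct of 25.0. miR-486, known from both red cells and muscle, was detected in 3 of 6 libraries, at 31.1 in saline replicate 3 and at 29.0 and 31.1 in KA-SE replicates 1 and 3.
MicroRNAs restricted to other organs gave Ct values in the same range as the myomiRs. Of 9 listed, 8 were detected in all libraries, and miR-203 of stratified epithelium and miR-194 and miR-192 of gut and liver were earliest at mean Ct values of 23.9, 24.0 and 24.1. The liver microRNA miR-122 read 25.7, 31.1 and 27.0 in saline mice, with 24.8, 25.9 and 26.5 after KA-SE. miR-133a, with a mean Ct of 22.5 over the 6 libraries, preceded each of the 9, while miR-208, with 29.4, was later than 5 of them.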

How the data were processed

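Total RNA of the right dentate gyrus of 6 mice, 3 per group, was profiled on TaqMan cards. The authors deposited raw Ct per assay, with 40 for no amplification, a table of Ct relative to a reference, which the methods name as RNU6B, and a table of fold changes, their own comparison, which was not used. The settings behind the Ct values are not given in the sources. Columns were matched by name, and 0 sample columns were left out. The card has no assay named RNU6B, so levels are the Ct of MammU6 minus the Ct. Mouse and rat microRNAs below Ct 35 in all libraries entered a limma fit (version 3.58.1, R 4.3.3) without a block, with Benjamini-Hochberg adjustment, and the fit was tested on simulated data. The simulation gave both groups the same spread, whereas in the data the median SD was 0.98 cycles in saline and 0.20 in KA-SE mice. Single values were compared with two-sided exact permutation or Fisher's exact tests. Precision is set by the number of mice, as a Ct carries no read depth. Named microRNAs are the members, the controls, the 3 nearest in likeness, and the called or up to 3 earliest members of each list. Outside this rule, and picked with their values known, are miR-122, miR-296-3p, the rat assay for miR-327 and the 5 assays that share the pattern of miR-499. The members and lists were chosen with earlier results of these data known. The alternatives were other references, detection limits and tests, the authors' deposited normalized table, the replicate number as a block, and leaving out libraries. Leaving out saline replicate 1 with the global mean, and the rat assay for miR-1, were added after seeing the data. Sequences are from RefSeq GRCm38.p6, in which 4 of 6 measured members were matched to a mature arm. miR-378 and miR-144 were not analysed here.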

Additional observations from a re-analysis of the deposited data

Results flagged for a closer look

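The plant microRNA ath-miR159a, a negative control outside the comparisons, reached a Ct of 18.8 in a KA-SE mouse, earlier than the earliest saline reading of 21.7. It amplified in 1 of 3 saline and 2 of 3 KA-SE mice, and its relation to the readings of the muscle microRNAs was not tested. Groups of 3 mice are too small for a search for single outlying mice.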

How the results depend on the processing

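None of the muscle microRNAs was called under any of the alternatives run, in which miR-1 lay between 0.26 and 1.70 and miR-208 between -4.26 and -1.21 on the log2 scale, neither changing sign. The count of calls over all microRNAs was 0 in each alternative except 2, with 1 call for miR-296-3p with no detection limit and 1 for the rat assay of miR-327 without KA-SE replicate 2, so that it ran from 0 to 1 with 1 library left out. The log2 fold change of miR-133a turned to -0.12 with the global mean, -0.19 with the median, -0.081 with quantile normalization, and -0.29 with the global mean without saline replicate 1. That of miR-133b turned to -0.36 with the global mean, -0.43 with the median, -0.36 with quantile normalization, -0.037 without saline replicate 2 (up to 0.48 without saline replicate 3), and with the global mean to -0.15 without saline replicate 2 and -0.48 without saline replicate 1. The difference of miR-208b turned to -0.56 without saline replicate 1 (up to 4.14 without saline replicate 3) and to -1.46 with the global mean as well. The cause was not tested. For miR-499 the difference ran from 0.72 cycles with a limit of 32 to 6.05 cycles with a limit of 40, as the floor itself sets it. Detections of muscle microRNAs in the 6 libraries were 32 with a limit of 32 and 33 with the higher limits. With 1 library left out they were 27 or 28, where fewer than 36 readings were possible. Whether the replicate numbers mark a shared batch or pairing of the mice was not settled. The correlations of same-numbered deviations were 0.19, 0.24 and 0.047, and each library correlated best with its own number. Those of differently numbered libraries ran from -0.29 to 0.032. With the replicate block 0 microRNAs were called and 33 had an unadjusted p under 0.05. There miR-208 had an unadjusted p of 0.00054 and a limma adjusted p of 0.0753, where the other alternatives gave 0.126 to 0.879. In that fit miR-1, miR-133a, miR-133b and miR-208 all had the same standard error, 0.80, so the p of miR-208 does not rest on its own spread. Without the block the standard error of miR-208 was 1.33. In the authors' normalized table the difference between miR-133a and miR-1 was 0.099 cycles in place of 0.68.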

Other observations

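In the deposited normalized table, raw Ct minus normalized Ct differed from the U6 Ct of the library by an amount that depended on the muscle microRNA. For miR-208 it was 0.069 and 0.076 cycles in saline replicates 1 and 3, 1.49 cycles in saline replicate 2, and 1.58, 1.56 and 1.49 cycles after KA-SE. The libraries with the late miR-208 readings are those with the large amounts. For miR-208b it stayed between -0.045 and 0.076 cycles in all 6 libraries, and for miR-1 it was -0.039 cycles in saline replicate 2 and -0.84 to -0.65 cycles in the others.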
